A study of Mus musculus with 4 samples.

Results

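Imprinted genes are expressed mainly from one parental chromosome. The genes described here are 38 imprinted genes of the mouse, listed by name and led by H19 and Igf2, of 55421 genes in the count tables. They were selected on published imprinting and with earlier results of the FGF2 contrast known, H19 included, so the changes of the members with FGF2 are given as a description and no p-value is printed for them. Of the 38, 14 are classed as expressed from the maternal copy, 21 from the paternal copy, and Grb10, Gnas and Inpp5f as depending on tissue or transcript. The classes are textbook assignments, since both parental chromosomes of inbred C57BL/6 mice carry the same sequence and the counts cannot tell them apart. Whether each class holds in the cells of these cultures was not tested.

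The cells were dissociated from the prefrontal cortex (PFC) of wild-type C57BL/6 mice on postnatal day 0 and grown for 10 days in neuronal medium. One group received fibroblast growth factor 2 (FGF2) at 5 ng/mL and the other did not, and all else in the stated culture protocol was shared. Each group has 2 libraries of total RNA, labelled B1 and B2 and called replicates 1 and 2 here. The labels do not say what B stands for, and the methods can be read as calling them technical replicates. If so, the errors given here hold no variation between cultures. Counts on genes totalled 9166432 to 10799886 per library, and levels are given in CPM, each count divided by the adjusted total of its library and rescaled. A count of 3 in a library corresponded to 0.2764 to 0.3298 CPM.

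Imprinting is set in the germ line by DNA methylation at control regions, which are then kept methylated on one chromosome in every tissue. Many paternally expressed genes promote growth and many maternally expressed genes restrain it, with insulin-like growth factor 2 (Igf2) and its scavenger receptor Igf2r as the classic opposed pair. Imprinted clusters often hold a long noncoding RNA, such as H19, Airn, Kcnq1ot1 or Meg3. In the brain, imprinted genes are widely expressed in neurons, and several also restrain the division of progenitor cells.

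The sequences that follow are shown because they are the start regions and processed products of members whose levels differed between the groups. RefSeq windows around the transcription start were at hand for 29 of the 38 members, on GRCm38.p6. Stretches upstream of a RefSeq start are given for Plagl1 (chr10:13090582-13090787, plus strand), Nnat (chr2:157559828-157560077, plus strand), Meg3 (chr12:109540746-109540995, plus strand) and the stretch shared by the divergent genes Peg3 and Usp29 (chr7:6730422-6730582, minus strand). The RefSeq start used for Plagl1 is one of its starts and lies inside the gene as GENCODE annotates it, so the stretch is not upstream of the whole gene. Capitals mark a cyclic AMP response element, TGACGTCA, at bases 194 to 201 of the Meg3 stretch.
Plagl1 upstream of that start: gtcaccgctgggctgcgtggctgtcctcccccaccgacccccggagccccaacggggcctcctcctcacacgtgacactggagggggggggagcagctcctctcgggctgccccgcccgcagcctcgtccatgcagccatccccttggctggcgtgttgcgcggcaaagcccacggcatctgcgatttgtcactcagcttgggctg
Nnat upstream: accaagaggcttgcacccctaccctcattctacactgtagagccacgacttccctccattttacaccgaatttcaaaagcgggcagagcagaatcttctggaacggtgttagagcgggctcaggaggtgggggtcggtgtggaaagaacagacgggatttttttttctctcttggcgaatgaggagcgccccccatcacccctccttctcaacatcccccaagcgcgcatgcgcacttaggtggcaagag
Meg3 upstream: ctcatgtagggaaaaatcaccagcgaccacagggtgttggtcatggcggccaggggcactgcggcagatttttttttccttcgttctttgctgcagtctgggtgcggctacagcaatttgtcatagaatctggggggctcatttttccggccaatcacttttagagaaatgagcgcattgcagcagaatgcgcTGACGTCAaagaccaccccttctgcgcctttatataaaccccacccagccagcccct
Peg3 and Usp29 shared: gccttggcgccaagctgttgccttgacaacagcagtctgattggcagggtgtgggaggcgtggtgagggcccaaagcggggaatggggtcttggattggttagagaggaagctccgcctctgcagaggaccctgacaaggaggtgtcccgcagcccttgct

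The 4 stretches differ in composition, with 15 CpG in the 206 bases of Plagl1, 12 in the 250 of Nnat, 10 in the 250 of Meg3 and 5 in the 161 shared by Peg3 and Usp29. Over the whole windows of 300 bases, the 46 member windows held a median of 10.5 CpG, against 7 in all 32851 RefSeq windows. The cyclic AMP response element occurred in the windows of Meg3, Peg3 and Usp29, and in 1.79% of all windows, with both strands searched and the Peg3 and Usp29 windows overlapping. GGGGCCCC, a site bound by the PLAGL1 protein, occurred in the windows of Peg3, Usp29 and Ppp1r9a and in 1.08% of all windows. The AP-1 motif TGANTCA occurred in the Magel2 window and in 7.81% of all windows. The ETS motif CCGGAAGT occurred in 0 member windows and in 3.89% of all windows.

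MicroRNAs were looked up inside 4 of the noncoding members, and RefSeq places 37 mature microRNAs there, 2 in H19, 3 in Meg3, 6 in Rian and 26 in Mirg. The other noncoding members were not searched. These microRNAs were not measured, since no small RNA library was analysed here. The microRNA gene Mir675 is listed at 0 counts in every library, but it lies within H19 and its 84 bases are shared, so this 0 says nothing about the microRNA. The products of H19 (chr7:142577112-142577133 and chr7:142577078-142577099, minus strand) are shown with one each of Meg3 (chr12:109563710-109563731) and Rian (chr12:109618305-109618326) and with the pair inside Mirg that shares a seed (chr12:109735669-109735692 and chr12:109739132-109739152). Capitals mark the seed, bases 2 to 8, and the 37 microRNAs had 36 distinct seeds.
miR-675-5p: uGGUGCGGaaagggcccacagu
miR-675-3p: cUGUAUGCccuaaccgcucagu
miR-770-5p: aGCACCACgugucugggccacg
miR-370-3p: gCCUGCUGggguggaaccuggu
miR-453: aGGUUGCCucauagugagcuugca
miR-496a-5p: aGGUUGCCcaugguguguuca

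Of the 38 members, 32 passed the filter on low counts, and of these 10 were higher with FGF2 and 13 lower at an adjusted p-value below 0.05, while 9 did not pass. Across all 17144 genes tested, 40.5% passed, 20.7% higher and 19.9% lower, so calls were common in this contrast. With any one library left out, 7 to 11 members were higher and 10 to 12 lower. The groups did not overlap for 26 of the 32 members, against 67.0% of all genes. The median log2 fold change of the 32 was -0.08, against -0.00082 for all genes tested, and the range ran from -1.51 for Magel2 to 3.40 for H19. A difference above 1 on the log2 scale was seen for 4 of the 32 members, H19, Cdkn1c, Plagl1 and Magel2, which is 12.5% against 8.75% of all genes.

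**Figure D1:**
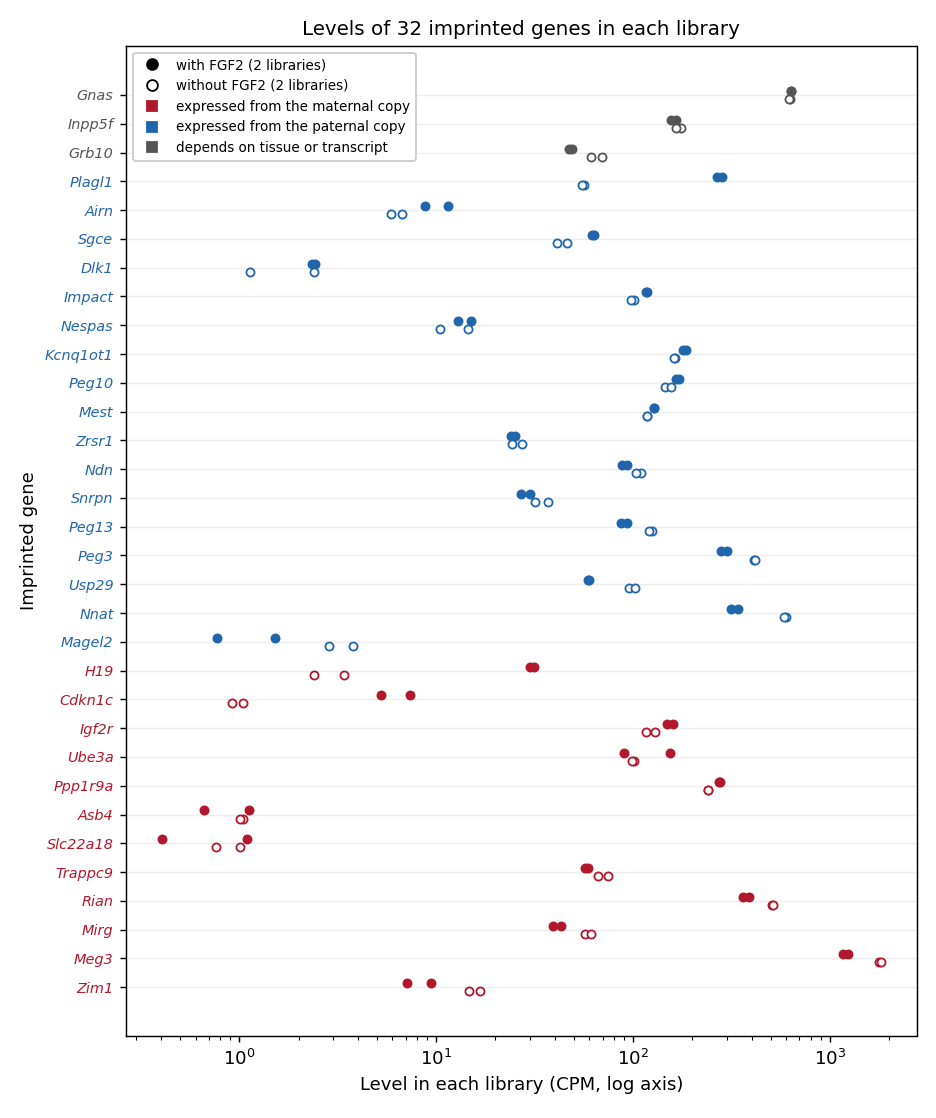
Level of each of the 32 imprinted genes that passed the filter, in CPM on a log axis, with 1 point per library. Filled points are the 2 libraries with FGF2 and open points the 2 without, and the colour gives the parental class. The filled and open points of H19, Plagl1 and Cdkn1c are far apart, with H19 at 29.8 and 31.6 CPM with FGF2 and 2.40 and 3.42 CPM without.

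H19 (chr7:142575529-142578143, minus strand) is a maternally expressed noncoding RNA that restrains growth. Its counts were 287 and 294 with FGF2 and 36 and 26 without, or 31.6 and 29.8 CPM against 3.42 and 2.40 CPM. Both libraries with FGF2 lay far above both without. H19 rose 10.5-fold, a log2 fold change of 3.40 ± 0.19 (SE, n = 2 against 2). Its microRNAs, printed above, share this host transcript.

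Igf2 (chr7:142650766-142666816, minus strand) is the paternally expressed growth factor 72622 bases from H19. It had 3 and 0 counts with FGF2 against 0 and 3 without, so each library lay at or under the 3-count floor and no fold is given. The annotated gene Gm49394 shares 3596 of the 5723 exonic bases of Igf2 on the same strand, or 62.8%, and is itself listed at 0 in all libraries. In the default mode of HTSeq, reads in the shared bases count for neither gene, which leaves 2127 bases for Igf2, so its low counts cannot be read as absence. The antisense gene Igf2os had 3 and 3 counts with FGF2 against 0 and 0 without.

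Igf2r (chr17:12682406-12769664, minus strand), the receptor that clears IGF2, is classed as maternal. It stood at 159 and 149 CPM with FGF2 and at 129 and 116 CPM without. The groups did not overlap, and Igf2r rose by a log2 fold change of 0.33 ± 0.06 (SE, n = 2 against 2). Airn, the paternally expressed noncoding RNA that runs antisense across the start of Igf2r and silences it in many tissues, had 80 and 113 counts with FGF2 against 62 and 73 without. It rose too, by 0.69 ± 0.21 on the log2 scale (SE), a call lost with DESeq2, without FGF2 replicate 2 (0.475) and without no FGF2 replicate 1 (0.589). The log2 ratio of Airn to Igf2r was -4.16 and -3.69 with FGF2 and -4.43 and -4.09 without, and these ranges overlap. The strand setting of the counting is not given in the sources used here, and without strand the reads of such antisense pairs cannot be told apart.

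Grb10, an adaptor protein that restrains insulin and IGF signalling, is expressed from the paternal copy in neurons and from the maternal copy in most other tissues. It was measured at 47.2 and 49.1 CPM with FGF2 and at 61.0 and 69.5 CPM without, and fell by 0.44 ± 0.08 on the log2 scale (SE). In bulk cultures, fewer cells of a type and less RNA per cell cannot be told apart, here and for every member.

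The other genes of the IGF2 pathway were read from a list of 12 receptors, binding proteins and mRNA-binding proteins, of which 9 passed the filter, 6 rose and 2 fell, beside 20.7% higher and 19.9% lower among all genes. Igf2bp2 and Igf2bp3, which bind Igf2 mRNA among others, rose by 1.97 ± 0.18 and 1.85 ± 0.22 on the log2 scale (SE). Igf2bp2 had 193 and 230 counts with FGF2 against 47 and 75 without, with no overlap. Igfbp7, a secreted binding protein, rose by 1.13 ± 0.24. Igfbp2 and Igfbp4, secreted proteins that bind IGFs, fell by 0.52 ± 0.08 and 0.51 ± 0.09. The signalling receptor Igf1r, through which IGF2 acts, rose by 0.90 ± 0.05, from 1694 and 1816 counts to 2733 and 3055.

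Plagl1 and Cdkn1c, which encode a zinc finger transcription factor and the cyclin-dependent kinase inhibitor p57, both halt the cell cycle. Plagl1 (chr10:13060504-13131694, plus strand) is paternally expressed and had 2571 and 2632 counts with FGF2 against 595 and 598 without, or 283 and 267 CPM against 56.5 and 55.1 CPM. The libraries of a group nearly coincided, and Plagl1 rose 4.92-fold, a log2 fold change of 2.30 ± 0.06 (SE, n = 2 against 2). Cdkn1c (chr7:143458339-143461050, minus strand) is maternally expressed and had 67 and 52 counts with FGF2 against 11 and 10 without. It rose 6.35-fold, a log2 fold change of 2.67 ± 0.37 (SE), on low counts and with no overlap.

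Per kilobase of annotated exon, the mean level of Plagl1 was 35.1 CPM per kb with FGF2 and 7.14 without, that of H19 was 12.5 and 1.18, and that of Cdkn1c was 3.10 and 0.482. The order of the 3 levels was therefore the same in both groups.

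Kcnq1ot1, the paternally expressed noncoding RNA that silences the Kcnq1 cluster holding Cdkn1c, was nearly level, with 1629 and 1824 counts with FGF2 against 1720 and 1751 without. After scaling, its log2 fold change was 0.17 ± 0.05 (SE), which passed the threshold here but not with DESeq2, without FGF2 replicate 2 (0.139) or without either library of the group without FGF2 (0.17 and 0.153). The log2 ratio of Kcnq1ot1 to Cdkn1c was 4.58 and 5.11 with FGF2 and 7.16 and 7.32 without, a difference of -2.40 that does not depend on library scaling. The remaining genes of the cluster were low. Slc22a18, a membrane transporter, had 10 and 4 counts with FGF2 against 8 and 11 without. Ascl2, a trophoblast transcription factor, had 1 and 1 against 6 and 0, and Phlda2, a placental growth restrainer, had 0 in every library. A count of 0 in a library allows a level of up to 0.2764 to 0.3298 CPM, counting error only.

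**Figure D2:**
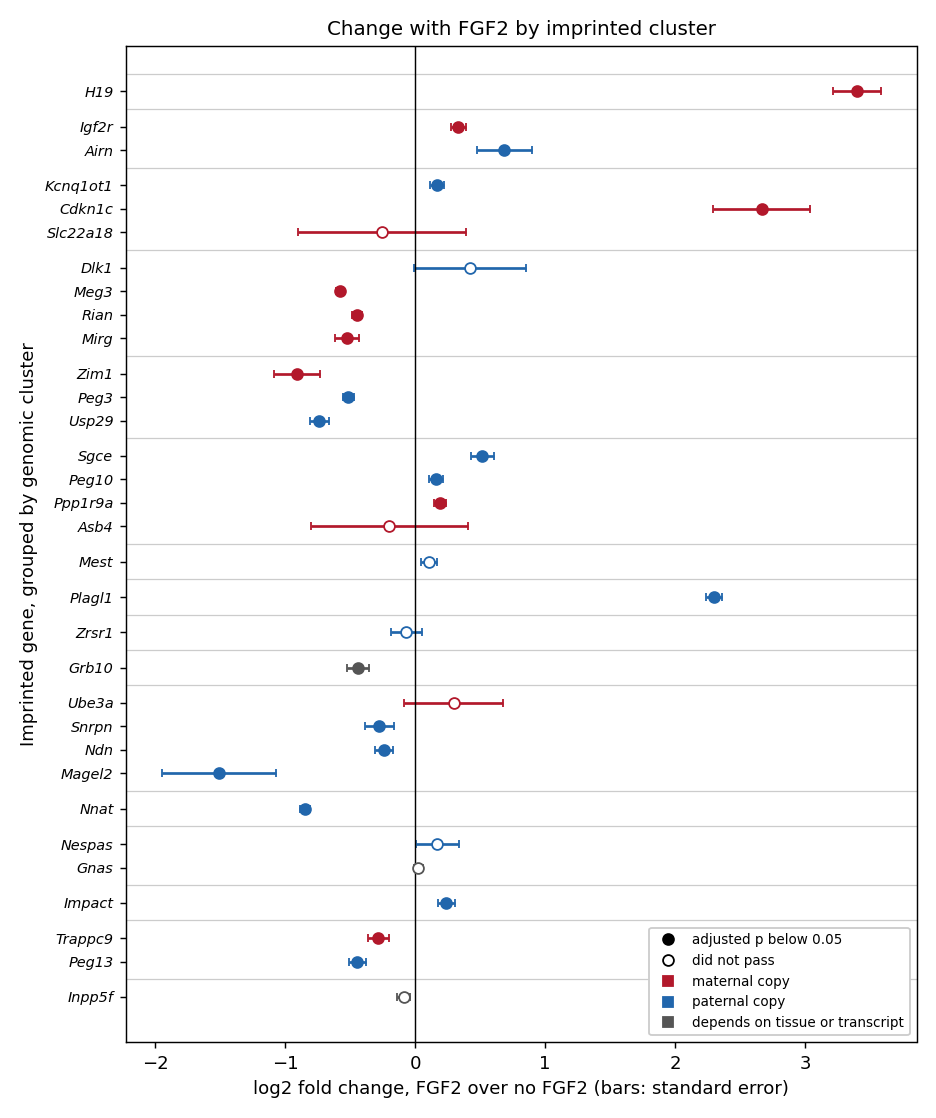
Log2 fold change of each of the 32 members, FGF2 over no FGF2, with the standard error as a bar, grouped by genomic cluster from H19 at the top to Inpp5f at the bottom. Filled points passed the adjusted p-value of 0.05 and the colour gives the parental class. The 3 members of the Peg3 cluster lie between -0.91 and -0.51, and H19, Cdkn1c and Plagl1 lie between 2.30 and 3.40.

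In the Dlk1-Dio3 cluster of chromosome 12, the 3 maternally expressed noncoding RNAs fell together. Meg3 (chr12:109541001-109571726, plus strand), the best known of them, had 11198 and 11544 counts with FGF2 against 18709 and 19618 without, or 1231 and 1171 CPM against 1776 and 1807 CPM. Meg3 fell by 0.58 ± 0.03 on the log2 scale (SE, n = 2 against 2). Rian, which hosts small nucleolar RNAs and microRNAs, stood at 360 and 387 CPM with FGF2 and at 507 and 512 CPM without, and fell by 0.45 ± 0.04. Mirg, the microRNA host, had 391 and 385 counts against 598 and 663, and fell by 0.52 ± 0.09. Neither group overlapped the other for any of the 3. The log2 ratio of Mirg to Meg3 was -4.84 and -4.90 with FGF2 and -4.97 and -4.88 without, which overlap, and that of Rian to Meg3 was -1.77 and -1.60 against -1.81 and -1.82.

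The paternally expressed protein-coding genes of the same cluster had low counts. Dlk1, a transmembrane protein of the Notch ligand family, had 22 and 23 counts with FGF2 against 12 and 26 without, with a log2 fold change of 0.42 ± 0.43 (SE) and overlapping groups. Rtl1, a retrotransposon-derived gene needed in the placenta, had 0 and 0 against 1 and 5. Dio3, which inactivates thyroid hormone, had 3 and 0 against 6 and 9. Rtl1 and Dio3 did not pass the filter.

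In the Peg3 cluster of chromosome 7, all 3 members fell, the 2 paternally expressed genes and the maternally expressed one. Peg3 (chr7:6703892-6730431, minus strand), a zinc finger protein, had 2727 and 2761 counts with FGF2 against 4352 and 4500 without, and fell by 0.51 ± 0.04 on the log2 scale (SE). Usp29, a ubiquitin-specific peptidase gene that starts 146 bases away on the opposite strand, had 542 and 580 counts against 1009 and 1104, and fell by 0.74 ± 0.07. The groups were well apart for both genes that share the upstream stretch printed above. The log2 ratio of Usp29 to Peg3 was -2.33 and -2.25 with FGF2 and -2.11 and -2.03 without. Zim1, a maternally expressed zinc finger gene, had 65 and 93 counts against 176 and 159, and fell by 0.91 ± 0.18.

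The Peg10-Sgce cluster of chromosome 6 moved the other way. Sgce, which encodes epsilon-sarcoglycan, stood at 63.1 and 61.7 CPM with FGF2 and at 40.9 and 46.3 CPM without, and rose by 0.52 ± 0.09 on the log2 scale (SE). Peg10, a retrotransposon-derived gene that starts beside Sgce on the opposite strand, stood at 165 and 172 CPM against 146 and 155 CPM, with a log2 fold change of 0.16 ± 0.05. This passed here but not with DESeq2, without FGF2 replicate 2 (0.13) or without no FGF2 replicate 1 (0.113). The log2 ratio of Peg10 to Sgce was 1.39 and 1.48 with FGF2 and 1.83 and 1.75 without, with no overlap. Ppp1r9a, classed as maternal, encodes the actin-binding protein neurabin. It rose by 0.19 ± 0.05, from 242 and 242 CPM to 278 and 274 CPM. Asb4, a maternally expressed ubiquitin ligase adaptor, had 6 and 11 counts against 11 and 11, and did not pass.

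Nnat (chr2:157560078-157562522, plus strand), the paternally expressed gene for neuronatin, a small membrane protein of developing neurons, had 3111 and 3116 counts with FGF2 against 6318 and 6330 without. In CPM it stood at 342 and 316 against 600 and 583, and fell by 0.85 ± 0.04 on the log2 scale (SE, n = 2 against 2). At 180 CPM per kb with FGF2 and 323 without, Nnat had the highest mean level per length of the 38 members in both groups. Meg3 came next in both groups, with 66.4 and 99.1 CPM per kb, and Gnas after it, with 56.5 and 55.6. The lengths merge the exons of all annotated transcripts, 1829 bases for Nnat, 18089 for Meg3 and 11186 for Gnas, and this order depends on them. In mean CPM without length, Meg3 (1201 with FGF2 and 1792 without) and Gnas (632 and 622) were above Nnat (329 and 591).

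The Prader-Willi and Angelman region of chromosome 7 holds paternally expressed genes and Ube3a, the ubiquitin ligase that neurons express from the maternal copy. Ndn, which encodes necdin, a protein that restrains division in neurons, stood at 87.5 and 92.9 CPM with FGF2 and at 110 and 103 CPM without, and fell by 0.24 ± 0.07 on the log2 scale (SE), a call lost without no FGF2 replicate 1 (-0.2). Magel2, a MAGE family gene of the hypothalamus and brain, had 7 and 15 counts against 30 and 41, and fell by 1.51 ± 0.44, a call lost with DESeq2 (-1.53), without FGF2 replicate 1 (-1.12) and without no FGF2 replicate 2 (-1.30). Snrpn, which encodes a spliceosome protein, had 272 and 266 counts against 391 and 344 and a log2 fold change of -0.28 ± 0.11. The call of Snrpn was lost with DESeq2, with no expression filter, without FGF2 replicate 2 (-0.204) and without no FGF2 replicate 1 (-0.162), and 27.3% of its exonic bases are shared with other annotated genes on the same strand.

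Ube3a had 823 and 1516 counts with FGF2 against 1067 and 1066 without, so the libraries with FGF2 lay on either side of those without. Its log2 fold change was 0.30 ± 0.38 (SE) and did not pass. Without FGF2 replicate 2 it was -0.14 and did not pass, and without FGF2 replicate 1 it was 0.62 and passed. The paternally expressed noncoding RNA Snhg14, whose extended form runs antisense to Ube3a, had 1573 and 1600 counts against 2303 and 2442 and fell by 0.41 ± 0.05.

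On chromosome 15, Peg13 is a paternally expressed noncoding RNA inside an intron of Trappc9, which encodes a vesicle transport protein that the brain expresses preferentially from the maternal copy. Peg13 stood at 92.9 and 86.9 CPM with FGF2 and at 125 and 120 CPM without, and fell by 0.45 ± 0.06 on the log2 scale (SE). Trappc9 stood at 57.2 and 58.7 CPM against 74.6 and 66.6 CPM, with a log2 fold change of -0.28 ± 0.08 that passed here but not with DESeq2 or without no FGF2 replicate 1 (-0.205). Host and inner gene thus shared a direction. Both are annotated on the minus strand, so reads of unspliced Trappc9 that fall within Peg13 would count as Peg13. The share of such reads was not tested. Slc38a4, an amino acid transporter on the same chromosome, had 0 and 0 counts against 4 and 5 and did not pass the filter.

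The remaining members moved little. Impact, a paternally expressed regulator of translation, stood at 118 and 117 CPM with FGF2 and at 101 and 97.4 CPM without, and rose by 0.24 ± 0.06 on the log2 scale (SE), a call lost without no FGF2 replicate 2 (0.207). Mest, a paternally expressed hydrolase family gene, had a log2 fold change of 0.11 ± 0.06, and Gnas, the stimulatory G protein alpha subunit, 0.02 ± 0.04. Neither passed, although their groups did not overlap, with Mest at 127 and 127 CPM against 118 and 118 CPM. Nespas, the noncoding RNA antisense to part of the Gnas locus, had 137 and 128 counts against 153 and 113, Zrsr1, a splicing factor family gene, 218 and 249 against 289 and 263, and Inpp5f, an inositol phosphatase, 1422 and 1624 against 1853 and 1802. None of these 3 passed.

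Read by parental class, 12 of the 14 maternally expressed members passed the filter, with 4 higher, 5 lower and a median log2 fold change of -0.23. That median falls between Slc22a18 (-0.26) and Asb4 (-0.20), neither of them called and each with at most 11 counts in any library. Of the 21 paternally expressed members 17 passed the filter, with 6 higher, 7 lower and a median of 0.11. Each class thus held members of both directions, and the sign of the paternal median changed with no filter (-0.064), with DESeq2 (-0.073) and without no FGF2 replicate 2 (-0.057). The maternal median was -0.079 without FGF2 replicate 1, -0.131 without no FGF2 replicate 2 and -0.043 with at least 10 counts in every library. Of the 8 noncoding members 3 were higher and 4 lower. These counts by class stand beside 20.7% higher and 19.9% lower among all genes. By cluster, the members called in the Peg3, Dlk1-Dio3, Prader-Willi and Angelman, and Peg13-Trappc9 clusters were all lower, and those called in the Igf2r-Airn, Kcnq1 and Peg10-Sgce clusters were all higher. Imprinted genes outside the member list did not all follow the members beside them. Atp10a, near Ube3a, was higher (log2 fold change 0.54 ± 0.18, SE), and Osbpl5, near Phlda2, was lower (-0.23 ± 0.09). Others called near these clusters went with the members, with Snhg14, Begain and Kcnk9 lower and Cd81, Pon2 and Pon3 higher.

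**Figure D3:**
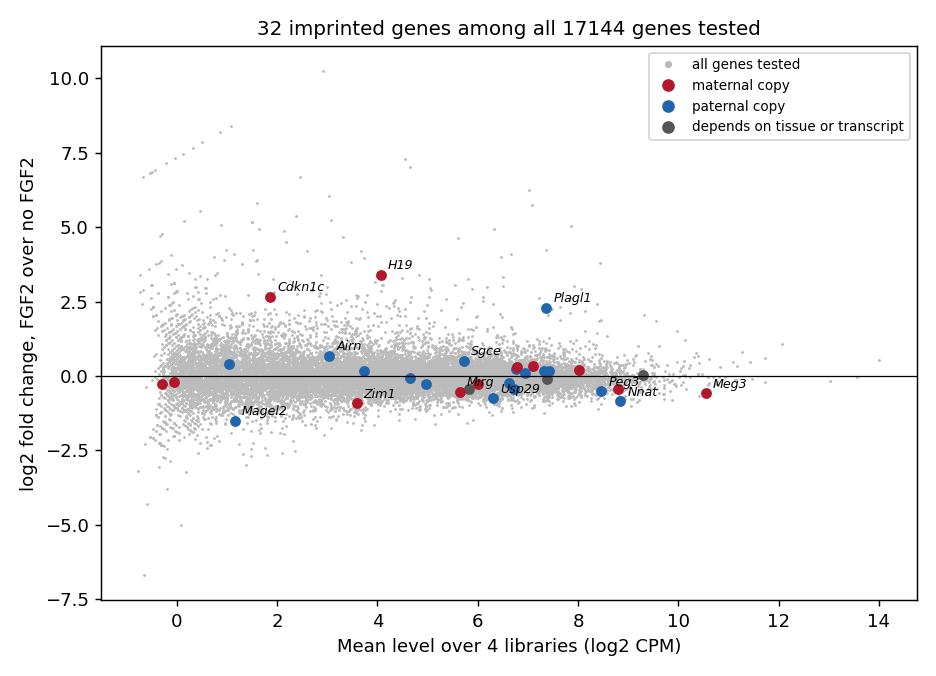
Mean level over the 4 libraries (log2 CPM, x axis) against the log2 fold change, FGF2 over no FGF2 (y axis), for all 17144 genes tested in grey and the 32 members in colour by parental class. Members beyond 0.5 on the y axis are named, and Plagl1 at 2.30 is far from zero at a high level while Magel2 at -1.51 has few counts.

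**Figure D4:**
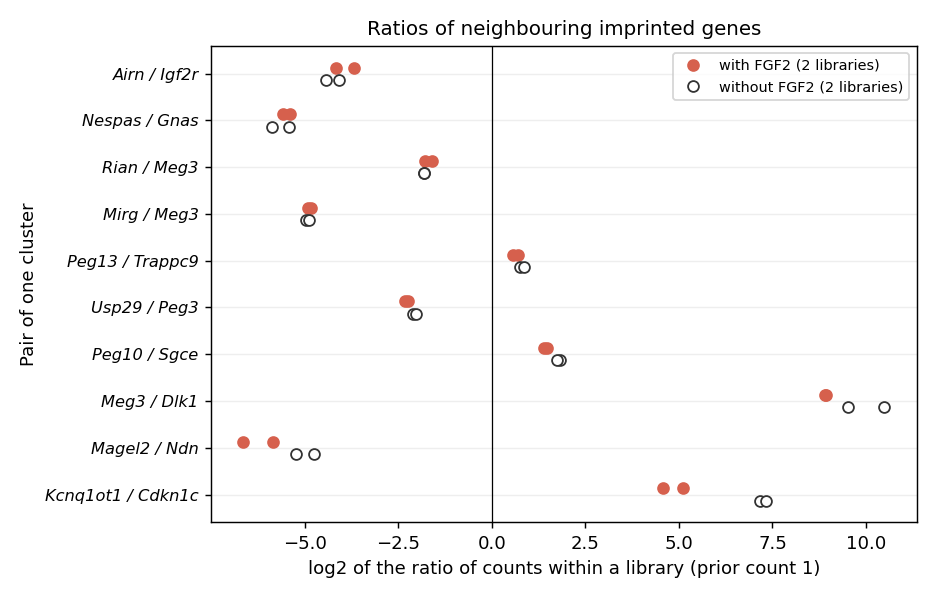
Log2 ratio of counts of 10 pairs of neighbouring imprinted genes within each library, with a prior count of 1, filled for the 2 libraries with FGF2 and open for the 2 without. The ratio of Kcnq1ot1 to Cdkn1c differs by -2.40 between the groups, and the points of Mirg to Meg3 overlap.

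The ratios within a cluster are free of library scaling, and 10 pairs are plotted, without the H19 and Igf2 pair because Igf2 lay at the floor. The ratio of Magel2 to Ndn was -6.64 and -5.84 on the log2 scale with FGF2 and -5.23 and -4.74 without. Meg3 to Dlk1 was 8.93 and 8.91 against 10.5 and 9.51, which rests on at most 26 counts of Dlk1 per library. Peg13 to Trappc9 was 0.70 and 0.56 against 0.74 and 0.85. With 2 libraries against 2, no permutation test of a ratio can pass 0.05, and none was made.

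A further 32 imprinted genes outside the member list were read in the same fit, of which 24 passed the filter, 6 rose and 8 fell, against 20.7% and 19.9% of all genes. The 3 with the largest rise were Ddc, the decarboxylase of dopamine and serotonin synthesis, by 1.16 ± 0.37 on the log2 scale (SE), and the paraoxonases Pon3 by 0.95 ± 0.22 and Pon2 by 0.81 ± 0.07. The 3 with the largest fall were Begain, a postsynaptic protein gene beside Dlk1, by 0.63 ± 0.12, Blcap, within which Nnat lies, by 0.56 ± 0.07, and Sfmbt2, a Polycomb group gene, by 0.50 ± 0.16.

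Factors that keep imprints were read from a list of 11, of which 10 passed the filter, 1 rose and 4 fell. These 5 calls are 50% of the 10, near the 40.5% called among all genes. Arid4b, a chromatin regulator, rose by 0.48 ± 0.07 on the log2 scale (SE). Uhrf1, which recruits the maintenance methyltransferase, fell by 0.59 ± 0.13, the methyltransferase Dnmt1 by 0.28 ± 0.06, and the zinc finger protein Zfp57, which binds methylated control regions, by 0.23 ± 0.07. The cofactor Trim28 fell as well. DNA methylation was not measured in these libraries.

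Marker lists of the cell types that the cultures could hold moved with the groups. The summed CPM of 8 neuronal markers, with Map2 and Stmn2 the most abundant, was 2893 and 2930 with FGF2 and 3991 and 3961 without, a ratio of 0.732. Of the 8, 7 were lower and 1, the neurofilament gene Nefl, was higher, with a log2 fold change of 0.38 ± 0.11 (SE). Beside these stand the 13 members called lower, among them Meg3, Nnat and Peg3, and the 10 members called higher. The 8 astrocyte markers, led by Gfap and Slc1a3, summed to 12650 and 12520 CPM against 7679 and 7624 CPM, a ratio of 1.64, and 7 oligodendrocyte lineage markers, led by Mbp and Pdgfra, to 1291 and 1265 CPM against 430 and 432 CPM, a ratio of 2.96. The 8 proliferation genes, led by Top2a and Mki67, summed to 218 and 223 CPM against 300 and 295 CPM, beside the higher Cdkn1c and Plagl1. Among these, 7 were lower, and Mki67 did not pass, with a log2 fold change of -0.10 ± 0.08 (SE). The part of these shifts in the members' values was not tested.

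Igf2 is abundant in the meninges, vessels and choroid plexus of the young brain and H19 is often expressed with it, so markers of those cells were read beside H19. The 10 meningeal fibroblast markers summed to 19.1 and 20.0 CPM with FGF2 and 24.8 and 24.0 CPM without. Dpt was at 0 in all libraries. Of the 6 that passed the filter, Ogn was higher (log2 fold change 1.48), and Col1a1 (-2.18) and Col1a2 (-1.73) were lower. Col3a1, Slc6a13 and Foxc1 were not called. The median log2 fold change of these 6 was -1.23. Ogn made up much of the sum with FGF2, at a mean of 11.6 CPM against 4.15 CPM without. The 8 mural markers, mostly Notch3 and Pdgfrb over the 4 libraries, summed to 98.6 and 91.5 CPM against 77.6 and 77.2 CPM, with Higd1b at 0. They went both ways, since Rgs5 rose 3.70-fold and Pdgfrb 1.66-fold, Notch3 did not pass, and Vtn fell, with 2 and 2 counts against 26 and 18. The 8 endothelial markers summed to 15.5 and 13.4 CPM against 5.98 and 9.77 CPM, with Cldn5 at 0. Flt1 rose 6.56-fold and Slco1a4 4.75-fold, and over the 4 libraries these 2 had the highest means of the list. Kdr fell, with a log2 fold change of -0.95 ± 0.41 (SE), Pecam1 overlapped between the groups, and in the group without FGF2 both had higher mean CPM than Flt1 and Slco1a4. The 8 choroid plexus markers, led by Folr1 and Otx2, summed to 6.38 and 6.29 CPM against 8.73 and 7.37 CPM, with Tmem72 at 0. Only 3 of them passed the filter. Ttr fell, with 0 and 6 counts against 16 and 11, while Folr1 (log2 fold change -0.43) and Otx2 (0.55) were not called. The 7 microglial markers, led by Csf1r and Cx3cr1, summed to 12.4 and 15.1 CPM against 6.55 and 6.45 CPM. The part of these cell types in the values of H19 was not tested.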

How the data were processed

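Total RNA was sequenced from 4 libraries of mouse PFC cultures, 2 with FGF2 at 5 ng/mL and 2 without, for 10 days. The authors mapped reads to mm10 with HISAT2 2.1.0, filtered on mapping quality with Samtools, counted reads per gene with HTSeq 0.11.2 and deposited raw counts per gene and library, with no normalization. The annotation release and strand setting are not given in the sources used here. Of the 55421 genes listed, 55240 matched GENCODE M21 by identifier, which gave symbols, coordinates and exonic lengths, and 5 tallies naming no gene were left out. No-feature reads made up 43.2% to 45.9% and ambiguous reads 1.47% to 1.77%.

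Groups were compared with edgeR 4.0.16 (quasi-likelihood, robust; R 4.3.3) after TMM scaling, with factors of 0.992 to 1.007. The edgeR expression filter left 17144 genes, p-values were adjusted over all of them by the Benjamini-Hochberg method, and the threshold was 0.05. CPM use the TMM library totals. Standard errors were derived from this fit, as the absolute log2 fold change divided by the square root of its quasi-likelihood F statistic. Here n counts libraries, and intervals at the floor of 3 counts cover counting error only. All 38 members are named. From the other lists of imprinted genes, IGF2 pathway genes and imprint maintenance factors, the 3 largest rises and 3 largest falls among called genes of at least 1 CPM are named, and from each cell type list the 2 most abundant markers and any at 0 in every library. Some listed cell type markers are not reported here and were left out of the sums. The members, lists and alternatives were chosen with earlier results of these data known. Gm49394, Igf2os, Mir675, Igf1r, Trim28, Snhg14, Nefl, Rgs5, Vtn, Kdr, Pecam1 and Ttr are named in addition, with their values seen. Atp10a, Osbpl5, Kcnk9, Cd81, Col1a2, Col3a1, Slc6a13 and Foxc1 were added in the same way. In counts simulated for this comparison over 17144 genes, 161 of 200 genes changed 2-fold were called, with 6 unchanged genes. The simulated spread was the one fitted to these 4 libraries, so it cannot show errors from variation between cultures that they may lack. Only 200 genes were changed, far fewer than the 6949 called in the data. Libraries of a group differed by more than sampling noise, with a chi-square per degree of freedom of 2.29 with FGF2 and 1.76 without. The alternatives were RLE and total count scaling, no filter, at least 10 counts in every library, DESeq2 1.42.0, a replicate block, each library left out, and a prior count of 0.1 for ratios.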

Additional observations from a re-analysis of the deposited data

How the results depend on the processing

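Of 189 log2 fold changes of members refitted with other scaling, filters, DESeq2 or a replicate block, 182 kept their direction and their side of the threshold and 7 lost the call, which were Airn, Kcnq1ot1, Peg10, Magel2, Snrpn and Trappc9 with DESeq2 and Snrpn without the filter. With DESeq2, 4007 genes were called in place of 6949, and 8 in place of 14 of the other imprinted genes. The median of the paternally expressed members was 0.09 with total count scaling, -0.064 with no filter, 0.139 with at least 10 counts in every library and -0.073 with DESeq2, and that of the maternally expressed members -0.043 with at least 10 counts. With each library left out in turn, these medians ran from -0.057 to 0.104 and from -0.225 to -0.079. Of 128 values with a library left out, 107 kept direction and call, 14 lost the call (among Airn, Kcnq1ot1, Peg10, Magel2, Ndn, Snrpn, Trappc9 and Impact), 1 gained it and 6 changed sign. The 6 were of genes that had not passed, and with libraries left out Slc22a18 ran from -1.111 to 0.302 and Ube3a from -0.144 to 0.62 (negative without FGF2 replicate 2), Asb4 from -0.634 to 0.112, Dlk1 from -0.017 to 1.047, Zrsr1 from -0.16 to 0.019 and Nespas from -0.057 to 0.423. The gain was Ube3a at 0.62 without FGF2 replicate 1. A fit that leaves a group with 1 library assumes that it varies like the other group. With a replicate block, 6814 genes were called, 10 members were higher and 13 lower, and no call of a member changed. Deviations of libraries with the same number correlated at 0.00771, so the numbers were not taken to pair the libraries. The cause of these differences was not tested. Igf2, Ascl2, Rtl1, Dio3, Slc38a4 and Phlda2 had at most 9 counts in any library, too few to compare at this depth, and for Igf2 the shared exons may also lower the count.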
